A study of Homo sapiens with 48 samples.

Results

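HEK293 cells, a human embryonic kidney line, carrying a stable AT1R transgene were incubated for 24 h with EGF alone or with EGF and angiotensin II (AII) together. AT1R is the main receptor for AII. The comparison of these groups gives what AII adds to EGF. It rests on 11 of the 48 libraries of the series, 5 of EGF and 6 of AII + EGF, chosen by the stimulus and time in the sample labels. A further EGF library, replicate 2, was left out because its counts were nearly those of a library labelled as unstimulated at 6 h. Poly(A) RNA was sequenced and counted as fragments per gene.

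EGF was given at 10 µg/L and AII at 1 nM, in medium without serum, and the single stimuli and the untreated control at 24 h served for reference, with 5 libraries of EGF, 5 of AII and 6 of control. All groups share the same clone (B6), grown by limiting dilution after selection with puromycin and with losartan, a blocker of AT1R, so that clonal features are common to every library. AT1R was expressed from a plasmid with a CMV promoter, and AGTR1 counts therefore include the transgene. The labels number no replicates, so the numbers used below follow the order of deposition and pair nothing. Nothing states that the libraries of a group came from separate cultures, and p-values then measure only the spread between these libraries. The cells were harvested in bulk, so fewer responding cells and a lower RNA level per cell cannot be told apart.

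EGF binds the receptor tyrosine kinase EGFR, which signals through RAS, RAF and ERK to transcription factors of the TCF and ETS families, to AP-1 and to EGR. AII binds AT1R, a receptor coupled to Gq and G12/13 proteins that raises calcium, activates protein kinase C and, through actin, the MRTF cofactors of SRF. AT1R can also act on EGFR through shedding of HB-EGF, which is called transactivation. Immediate-early genes such as ARC, an activity-regulated cytoskeletal protein, and EGR1 are read out quickly after such signals, whereas adhesion, matrix and metabolic genes often follow later.

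The 11 libraries held 18.1 to 24.9 M counts each, with a median of 21.7 M. The EGF and AII + EGF libraries expressed all 11 lineage genes of HEK293 cells, with medians above 1 CPM, the count scaled to the size of the library. Of 17 markers of other cell types, 6 had a median above 1 CPM, and their summed level ranged from 49.7 to 70.1 CPM under EGF and from 51.4 to 60.2 CPM under AII + EGF. The T cell marker CD3E was at 0 in all 11 libraries, and PTPRC, LYZ and HBB had medians of 0.

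EGF replicate 6 and AII + EGF replicate 6, titled a46 and a48, stood apart from the other 9 libraries. ETV5, an ETS factor induced by ERK, was at 1.38 CPM in EGF replicate 6 and at 12.7, 15.9, 13.5 and 17.4 CPM in the other EGF libraries. Under AII + EGF it was at 1.04 CPM in replicate 6, with a median of 12.05 CPM and a highest value of 16.02 CPM in the group. These levels lay near the controls (0.875 ± 0.120 CPM, SD, n = 6), so the EGF response of both libraries was weak in this gene. EGR1, a zinc finger factor of the early EGF response, was at 6.68 and 8.38 CPM in the same libraries, against 26.6 to 38.2 CPM in the other EGF libraries and 17.1 to 35.1 CPM in the other AII + EGF libraries. ETV5 and EGR1 were picked for this check after their values had been seen. The control and AII libraries of the same run of titles, a45 and a47, were also low in ARC, at 4.30 and 4.49 CPM. Whether a46 and a48 were stimulated as labelled was not tested, and every value with all 11 libraries takes their labels as given. The differences of the called genes are therefore given with all 11 libraries and without the run a45 to a48, which leaves 9 libraries, 4 of EGF and 5 of AII + EGF.

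**Figure D1:**
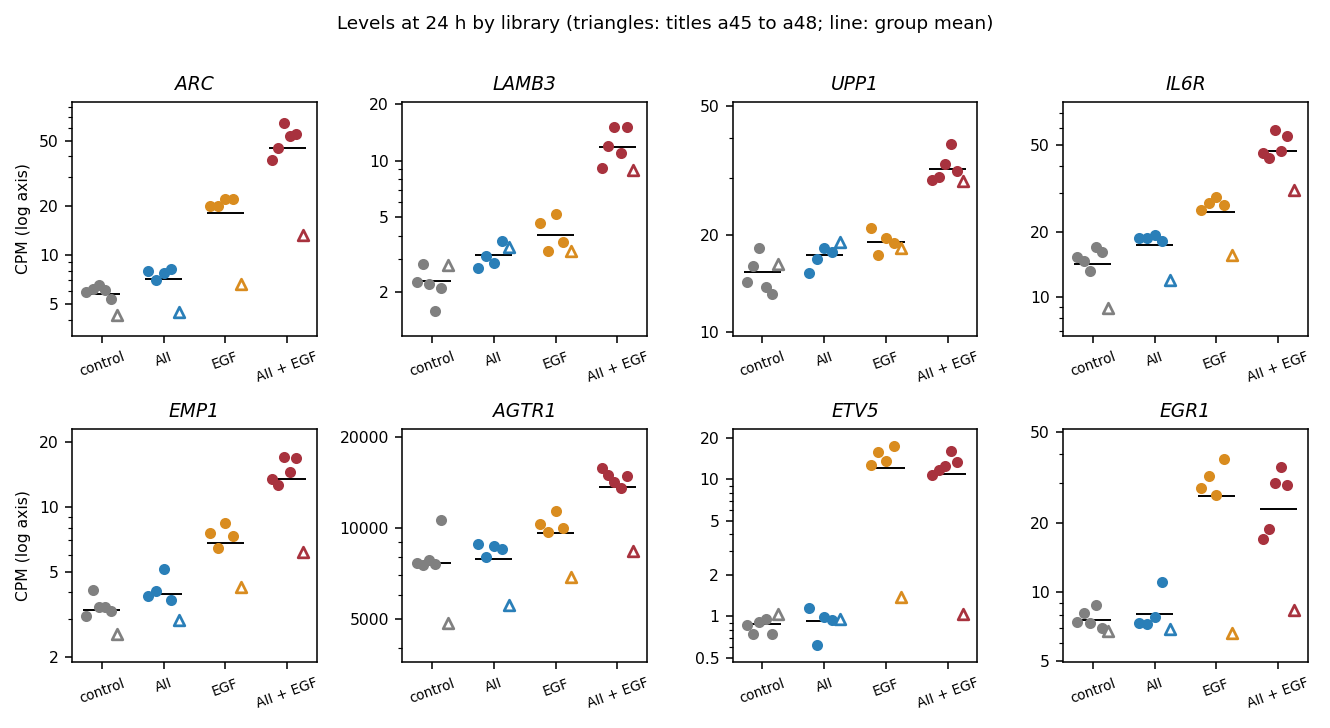
CPM at 24 h in each library on a log axis for control, AII, EGF and AII + EGF, with triangles for the libraries titled a45 to a48 and a line for the group mean. ARC, LAMB3, UPP1, IL6R, EMP1 and AGTR1 were higher under AII + EGF than under EGF within either set of symbols, whereas the ranges of the filled circles overlapped in ETV5 and EGR1, and the EGF and AII + EGF triangles lay near the controls in ETV5 and EGR1.

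ARC rose with AII + EGF by about 2.44-fold over EGF in the 9 libraries outside the run a45 to a48. Its level was 19.8, 19.9, 21.9, 21.9 and 6.64 CPM in the EGF libraries, the last in replicate 6. Under AII + EGF the lowest level was 13.3 CPM, in replicate 6, the median 49.1 CPM and the highest 63.7 CPM. Without the libraries a46 and a48 the groups did not overlap, and with them 1 AII + EGF library lay inside the range of EGF. The controls were at 5.74 ± 0.80 CPM (SD, n = 6) and the AII libraries at 7.08 ± 1.51 CPM (SD, n = 5). The difference between AII + EGF and EGF was 1.31 ± 0.29 on the log2 scale (SE) with all 11 libraries (edgeR quasi-likelihood test, Benjamini-Hochberg adjusted p 0.0501) and 1.29 ± 0.12 without the run (adjusted p 1.32e-05). An exact two-sided permutation test over the 11 libraries, on log2(CPM + 1), gave a difference of 1.23 and p 0.0216. Without a46 and a48 the same test gave 1.23 and p 0.00794, the smallest value that 4 against 5 libraries allow.

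AGTR1, which codes for the receptor of AII and is carried here as transgene, had more counts under AII + EGF than under EGF. It was at 10303, 9708, 11349, 9971 and 6878 CPM in the EGF libraries, again with replicate 6 lowest. Under AII + EGF the lowest level was 8391 CPM, in replicate 6, the median 14499 CPM and the highest 15739 CPM. Outside replicate 6 every AII + EGF library lay above every EGF library. The log2 difference was 0.50 ± 0.19 with all libraries and 0.50 ± 0.13 without the run, and the adjusted p of edgeR was 0.432 and 0.0767, so that AGTR1 was not called. The exact permutation test of this single gene, two-sided, gave 0.49 and p 0.0281 over 11 libraries, and p 0.0571 without EGF replicate 6, the only library whose omission took it above 0.05. Under AII alone AGTR1 was at 7909 ± 1354 CPM (SD, n = 5) and in control at 7672 ± 1827 CPM (SD, n = 6).

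Across all genes, 18703 passed the filter on low counts. Calls needed an adjusted p under 0.01, a fold change of 1.5 or more, and over 5 CPM on average in whichever group was higher. With all 11 libraries AII + EGF differed from EGF in 2 genes, 0.0107% of those tested, and both rose. In all, 45 genes had an adjusted p under 0.05 and 1474 had an unadjusted p under 0.05. Without the run a45 to a48, 24 of 18652 genes were called, 0.129%, of which 20 rose and 4 fell. DESeq2 called 25 genes with all libraries and 62 without the run. With the runs of titles as a block in the fit, which compares libraries of neighbouring titles, edgeR called 71 genes with all 11 libraries, 0.38% of those tested, and 19 of the 24 were among them. The differences in the 24 genes were alike with and without the run, with a median over the 20 higher genes of 0.97 and 0.99 on the log2 scale. The 24 were called in the 9 libraries that are part of the 11, so this likeness is largely built in. The median SE of the 24 was 0.19 with the run and 0.14 without it.

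LAMB3 and UPP1 were the genes called with all 11 libraries. LAMB3 codes for the beta-3 chain of a laminin of epithelial basement membranes and lies on chromosome 1 (GRCh38, 209614870 to 209652425). It was at 4.65, 3.30, 5.22, 3.70 and 3.32 CPM under EGF, and between 8.91 and 15.1 CPM under AII + EGF with a median of 11.5 CPM. The groups did not overlap, and the AII + EGF library lowest in LAMB3 was again replicate 6. LAMB3 rose by 1.55 ± 0.18 on the log2 scale (adjusted p 0.000101), that is 2.93-fold, and by 1.56 ± 0.18 without the run (adjusted p 0.000286). UPP1, uridine phosphorylase, splits uridine for salvage or for use of its ribose, and lies on chromosome 7 (48088704 to 48108736). It was at 20.99, 17.4, 19.6, 18.96 and 18.3 CPM under EGF, and its lowest, median and highest levels under AII + EGF were 29.4, 30.8 and 38.1 CPM. Here too the groups were separate, and replicate 6 of either group lay close to its fellows. The rise of UPP1 was 0.75 ± 0.10 on the log2 scale (adjusted p 0.000665). Its call was lost in a fit over 47 libraries of both times, all except EGF replicate 2 (adjusted p 0.241). With the 40 libraries of both times outside the near-identical pairs, only 1 gene was called. In all, 309 of 18703 genes had groups that did not overlap, 1.65% of those tested, 195 higher and 114 lower under AII + EGF.

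Promoters are given for genes called with all 11 libraries, or without the run in every fit that left out 1 library. They are shown where RefSeq gives a window, 250 bases before to 50 after the start of transcription on GRCh38.p14. LAMB3 (chr1:209651325-209651624, minus strand) and UPP1 (chr7:48088454-48088753, plus strand) have 3 windows each, and the ones shown hold the match. IL6R (chr1:154405093-154405392, plus strand) and EMP1 (chr12:13196476-13196775, plus strand) have 1 window each. Capitals mark the AP-1 consensus, TGANTCA, searched on both strands.
LAMB3: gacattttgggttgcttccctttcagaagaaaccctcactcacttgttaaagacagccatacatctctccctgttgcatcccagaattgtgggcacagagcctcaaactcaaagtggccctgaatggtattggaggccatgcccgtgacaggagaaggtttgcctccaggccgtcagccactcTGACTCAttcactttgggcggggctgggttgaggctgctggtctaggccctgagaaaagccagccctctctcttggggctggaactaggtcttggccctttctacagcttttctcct
UPP1: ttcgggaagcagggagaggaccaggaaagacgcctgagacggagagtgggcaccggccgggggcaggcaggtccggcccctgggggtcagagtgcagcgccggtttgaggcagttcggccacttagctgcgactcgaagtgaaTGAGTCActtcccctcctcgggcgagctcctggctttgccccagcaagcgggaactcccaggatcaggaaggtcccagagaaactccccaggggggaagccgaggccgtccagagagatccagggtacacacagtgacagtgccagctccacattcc
IL6R: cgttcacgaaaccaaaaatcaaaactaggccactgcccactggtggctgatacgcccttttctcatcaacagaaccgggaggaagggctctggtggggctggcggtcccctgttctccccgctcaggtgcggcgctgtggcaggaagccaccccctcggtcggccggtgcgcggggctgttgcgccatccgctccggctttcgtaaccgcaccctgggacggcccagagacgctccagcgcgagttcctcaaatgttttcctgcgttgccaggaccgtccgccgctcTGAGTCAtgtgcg
EMP1: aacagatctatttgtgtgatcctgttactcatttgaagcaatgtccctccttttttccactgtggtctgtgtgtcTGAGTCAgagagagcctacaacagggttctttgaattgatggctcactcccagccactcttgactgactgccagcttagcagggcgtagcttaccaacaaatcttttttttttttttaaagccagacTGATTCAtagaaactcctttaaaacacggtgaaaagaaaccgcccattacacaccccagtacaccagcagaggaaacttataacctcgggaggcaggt
AP-1 is a dimer of FOS and JUN proteins, and the consensus began 67 bases before the start in LAMB3, 107 before it in UPP1, 37 after it in IL6R, and 175 and 48 before it in EMP1. Of 25 genes looked up, the 24 called without the run and AGTR1, 12 had an entry with 17 windows. ARC and BEST1 were among the 13 without an entry, so the counts of motifs do not cover them. TGANTCA was found in 4 of the 17 windows, from 4 genes, which are those shown, and in 7.71% of all 35116 promoter windows. GAANNTTC, a part of the heat shock element, was in 2 of the 17, those of HSPA1A and HSPA1B, and in 6.77% of all windows. The EGR consensus GCGNGGGCG was in 3 of the 17, of NRARP and PLAAT3, and in 9.43% of all. The CRE TGACGTCA (1.85% of all windows) and the CArG box of SRF (1.29%) were in none of the 17. A match describes letters in these windows and is not a measured binding site.

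The called genes are described by their known roles, as an order of presentation and not as groups that were tested. IL6R, the alpha chain of the interleukin-6 receptor, was at 25.1, 27.2, 28.8, 26.7 and 15.7 CPM under EGF, and at 30.96, 46.5 and 58.3 CPM (lowest, median and highest) under AII + EGF. The groups were separate in all 11 libraries, and replicate 6 was lowest in each. IL6R rose by 0.89 ± 0.10 on the log2 scale without the run (adjusted p 0.000118) and differed by 0.92 ± 0.18 with it (adjusted p 0.0270). Its span overlaps the antisense gene IL6R-AS1, whose reads cannot be told apart where strand was not counted. EMP1, a membrane protein with 4 spans that is found at epithelial junctions, was at 7.54, 6.45, 8.45, 7.34 and 4.25 CPM under EGF. Under AII + EGF its lowest, median and highest levels were 6.19, 14.01 and 17.2 CPM. Only replicate 6 of AII + EGF reached into the range of EGF. EMP1 rose by 1.00 ± 0.13 without the run (adjusted p 0.000903) and differed by 0.99 ± 0.21 with it (adjusted p 0.0396). TNFRSF12A, the receptor of the cytokine TWEAK, and GPRC5A, an orphan receptor with heptahelical fold, rose by 1.05 ± 0.18 and 0.59 ± 0.10 without the run, and were named after their values had been seen. With all libraries their adjusted p was 0.0299 and 0.554.

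BEST1, a calcium-activated chloride channel, was at 2.50, 3.25, 2.79, 2.48 and 5.43 CPM under EGF and at 5.13, 6.68 and 9.84 CPM under AII + EGF (lowest, median and highest). Here replicate 6 was highest in either group, unlike in ARC or IL6R. BEST1 rose by 1.22 ± 0.16 without the run (adjusted p 0.000923) and differed by 1.09 ± 0.20 with it (adjusted p 0.0235). Its span overlaps FTH1, the abundant ferritin heavy chain, so that its counts are uncertain. CPLX1, complexin 1, which binds the SNARE complex in exocytosis, was at 2.55, 3.30, 2.43, 2.80 and 2.84 CPM under EGF. Its lowest, median and highest levels under AII + EGF were 4.55, 5.53 and 8.23 CPM. The groups of CPLX1 were separate in all 11 libraries, and it rose by 1.17 ± 0.17 without the run (adjusted p 0.00160) and differed by 1.10 ± 0.22 with it (adjusted p 0.0289). GEM, a small GTPase that restrains voltage-gated calcium channels and the cytoskeleton, went from 10.5 ± 0.94 CPM under EGF (SD, n = 4) to 18.2 ± 2.94 CPM under AII + EGF (SD, n = 5) without the run, a rise of 0.80 ± 0.12 on the log2 scale (adjusted p 0.00253). With all libraries GEM differed by 0.83 ± 0.24 and was not called (adjusted p 0.220).

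G0S2, an inhibitor of the triglyceride lipase ATGL, was at 11.3, 8.03, 11.6, 8.34 and 1.82 CPM under EGF. Under AII + EGF its lowest level was 4.96 CPM, in replicate 6, its median 27.01 CPM and its highest 35.9 CPM. The other 5 AII + EGF libraries lay far above EGF, whereas replicate 6 of either group was low, as was the control titled a45 with 0.502 CPM. G0S2 rose by 1.57 ± 0.23 without the run (adjusted p 0.00187) and differed by 1.62 ± 0.49 with it (adjusted p 0.257). CYP24A1, the mitochondrial enzyme that inactivates vitamin D, was at 1.81, 1.86, 2.57, 2.11 and 0.203 CPM under EGF, and at 1.45, 5.17 and 8.39 CPM under AII + EGF. CYP24A1 rose by 1.47 ± 0.20 without the run (adjusted p 0.00122), and with it the call was lost (1.57 ± 0.43, adjusted p 0.192). PLAAT3, a phospholipase and acyltransferase, did not overlap between the groups in any of the 11 libraries, with 2.50 to 3.97 CPM under EGF and 4.88 to 7.58 CPM under AII + EGF. PLAAT3 rose by 1.14 ± 0.20 without the run (adjusted p 0.00925) and differed by 1.03 ± 0.19 with it (adjusted p 0.0234).

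HSPA1A and HSPA1B code for the same inducible heat shock protein on chromosome 6 and are near-identical copies, so that the share of each is uncertain. HSPA1A was at 757, 482, 609, 499.9 and 206 CPM under EGF and at 281, 1037 and 1439 CPM under AII + EGF (lowest, median and highest). HSPA1B was at 260, 188, 263, 206 and 101 CPM under EGF and at 138, 419 and 553 CPM under AII + EGF. In both copies AII + EGF replicate 6 lay within the range of EGF and the other 5 libraries above it. Without the run HSPA1A rose by 0.95 ± 0.15 (adjusted p 0.00417) and HSPA1B by 0.97 ± 0.13 (adjusted p 0.00122). With all libraries neither was called, with 0.96 ± 0.28 for HSPA1A (adjusted p 0.224) and 0.96 ± 0.24 for HSPA1B (adjusted p 0.107). CLU, clusterin, a chaperone outside the cell, was at 227, 226, 240, 187 and 212 CPM under EGF and at 276, 391 and 512 CPM under AII + EGF, and the groups were separate. CLU rose by 0.92 ± 0.15 without the run (adjusted p 0.00553) and differed by 0.85 ± 0.15 with it (adjusted p 0.0191). Of the other risers, PALM3, a membrane-bound paralemmin, rose by 0.83 ± 0.13 and the long noncoding RNA LINC02154 by 1.09 ± 0.18 without the run, and with it they differed by 0.78 ± 0.14 and 1.07 ± 0.19 (adjusted p 0.0234 for each). NRARP, a feedback inhibitor of Notch, and CCDC69, a coiled-coil protein of the mitotic spindle, rose by 0.60 ± 0.10 and 0.86 ± 0.15 without the run, and were named after their values had been seen. With all libraries their adjusted p was 0.0918 and 0.0613.

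**Figure D2:**
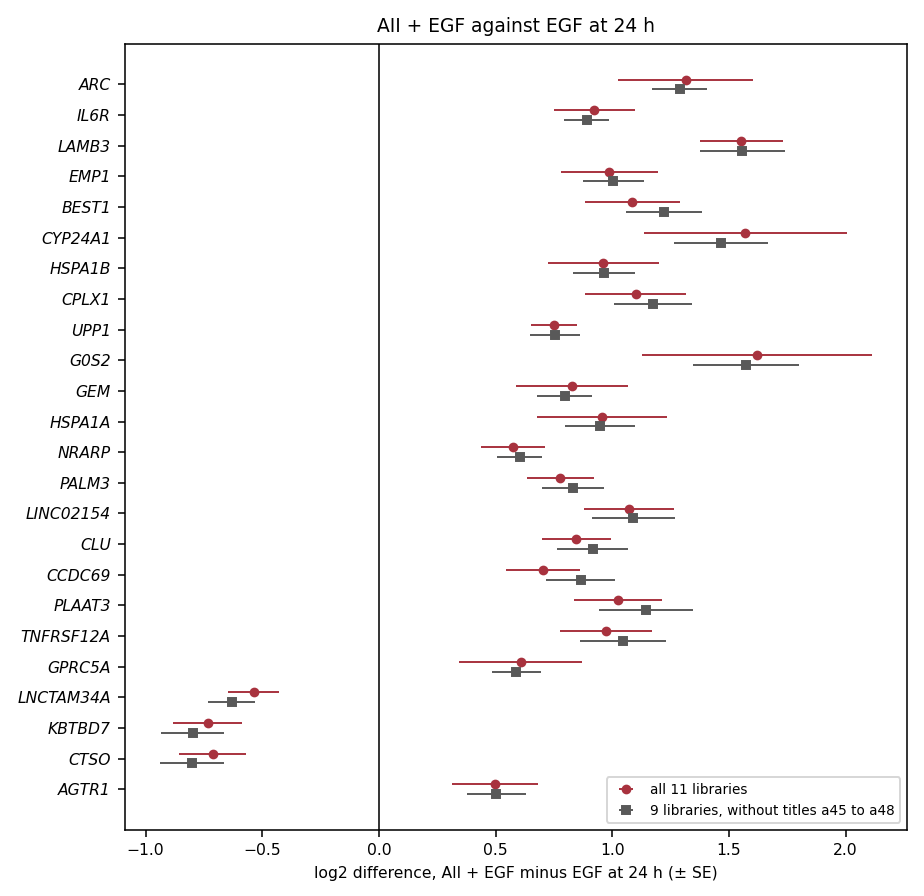
Difference between AII + EGF and EGF at 24 h on the log2 scale, with SE, for 23 of the 24 genes called without the libraries titled a45 to a48 and for AGTR1, with all 11 libraries (circles) and with the other 9 (squares). The 20 higher genes lay between 0.59 and 1.57 with 9 libraries, and the circles lay close to the squares with wider errors in ARC, CYP24A1, G0S2 and HSPA1A.

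The genes that fell without the run include CTSO, KBTBD7 and LNCTAM34A. CTSO, the cysteine protease cathepsin O, was at 5.68, 7.46, 6.64, 6.23 and 4.82 CPM under EGF and at 3.35, 3.73 and 4.40 CPM under AII + EGF. The groups of CTSO were separate, and it fell by 0.80 without the run (SE 0.14, adjusted p 0.00640). KBTBD7, an adaptor of a CUL3 ubiquitin ligase, also fell by 0.80 (SE 0.13, adjusted p 0.00640), and the long noncoding RNA LNCTAM34A, whose span overlaps MIR34AHG, fell by 0.63 (SE 0.10, adjusted p 0.00451). With all libraries the differences of CTSO, KBTBD7 and LNCTAM34A were -0.71 ± 0.14, -0.73 ± 0.15 and -0.54 ± 0.11, with an adjusted p of 0.0299 for each.

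PKIA, GASAL1 and MTSS1 followed by p-value with all 11 libraries among lower genes above 5 CPM, and were not called. PKIA, an inhibitor of protein kinase A, was at 59.4 ± 4.57 CPM under EGF (SD, n = 5) and at 42.6 ± 3.76 CPM under AII + EGF (SD, n = 6). The long noncoding RNA GASAL1 was at 11.4 ± 1.13 and 7.81 ± 0.73 CPM, and MTSS1, which links membranes to actin, at 12.5 ± 0.48 and 9.17 ± 0.91 CPM. The groups did not overlap in any of these genes, and their log2 differences were -0.48 ± 0.10, -0.54 ± 0.11 and -0.44 ± 0.09. Their adjusted p-values of 0.0300, 0.0377 and 0.0396 did not meet the rule, and their changes were below 1.5-fold. Without the run the adjusted p-values were 0.0213, 0.00486 and 0.00985.

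Single libraries decided how many genes were called. With all libraries the count was 18 without AII + EGF replicate 6 and 2 or 3 without any other library. Among the 9 libraries outside the run, it was 6 without EGF replicate 3, 7 without EGF replicate 5 and 12 without EGF replicate 4. It was 15 without EGF replicate 1. Without AII + EGF replicates 1, 2, 3, 4 and 5 in turn, it was 17, 12, 14, 20 and 13. ARC, BEST1, EMP1, IL6R and LAMB3 were called in all 9 of these fits, and UPP1 in 7. Calls depended on other settings too. Over those run without the run a45 to a48, in edgeR or DESeq2, the highest adjusted p was 0.00325 for LAMB3 and 0.0648 for BEST1. It was 0.315 for UPP1, 0.336 for EMP1, 0.561 for IL6R and 0.615 for ARC.

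The difference of AII alone from control at 24 h is taken between other libraries than that of AII + EGF from EGF, although all of them shared the filter and the estimate of the spread. Of the 20 genes that rose, 19 were above 0 under AII alone, with a median log2 difference of 0.25, and all 4 that fell were below 0, with a median of -0.09. Of all genes tested, 49.0% were above 0, with a median of 0.00. Under AII alone 0 of all 18703 genes were called, so the lack of calls is not particular to the 24. Of the 24, 3 had an unadjusted p under 0.05 in edgeR, as did 225 of all 18703 genes. Without the run 17 of the 20 were above 0, CPLX1 among the exceptions with -0.18 ± 0.17, and 6 of the 24 had an unadjusted p under 0.05. LAMB3 was at 3.17 ± 0.43 CPM under AII (SD, n = 5) and at 2.31 ± 0.47 CPM in control (SD, n = 6), a difference of 0.46 ± 0.18 with an adjusted p of 1.00. CYP24A1 differed more, by 0.80 ± 0.55 with the run and by 1.01 ± 0.26 without it, and was not called in either.

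At 6 h, the same stimuli were compared in 3 EGF and 5 AII + EGF libraries outside the near-identical pairs. Of the 20 genes that rose at 24 h, 18 were above 0 at 6 h, with a median of 0.66, and all 4 that fell were below 0, with a median of -0.52. Across the 19683 genes tested 50.4% were above 0. None of the 24 was among the 33 genes called at 6 h (0.168% of those tested), and 13 of them had an unadjusted p under 0.05, as had 3222 of all genes. ARC differed by 2.75 ± 0.71 at 6 h (adjusted p 0.0395), IL6R by 1.62 ± 0.43 (adjusted p 0.0447) and EMP1 by 1.70 ± 0.38 (adjusted p 0.0173). LAMB3 differed by -0.10 ± 0.23 at 6 h, and CCDC69 by -0.57 ± 0.20. The change of the difference between the times was 1.64 ± 0.29 for LAMB3 (adjusted p 0.00783) and 1.26 ± 0.26 for CCDC69 (adjusted p 0.0203), and it did not pass 0.05 in the other 22.

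**Figure D3:**
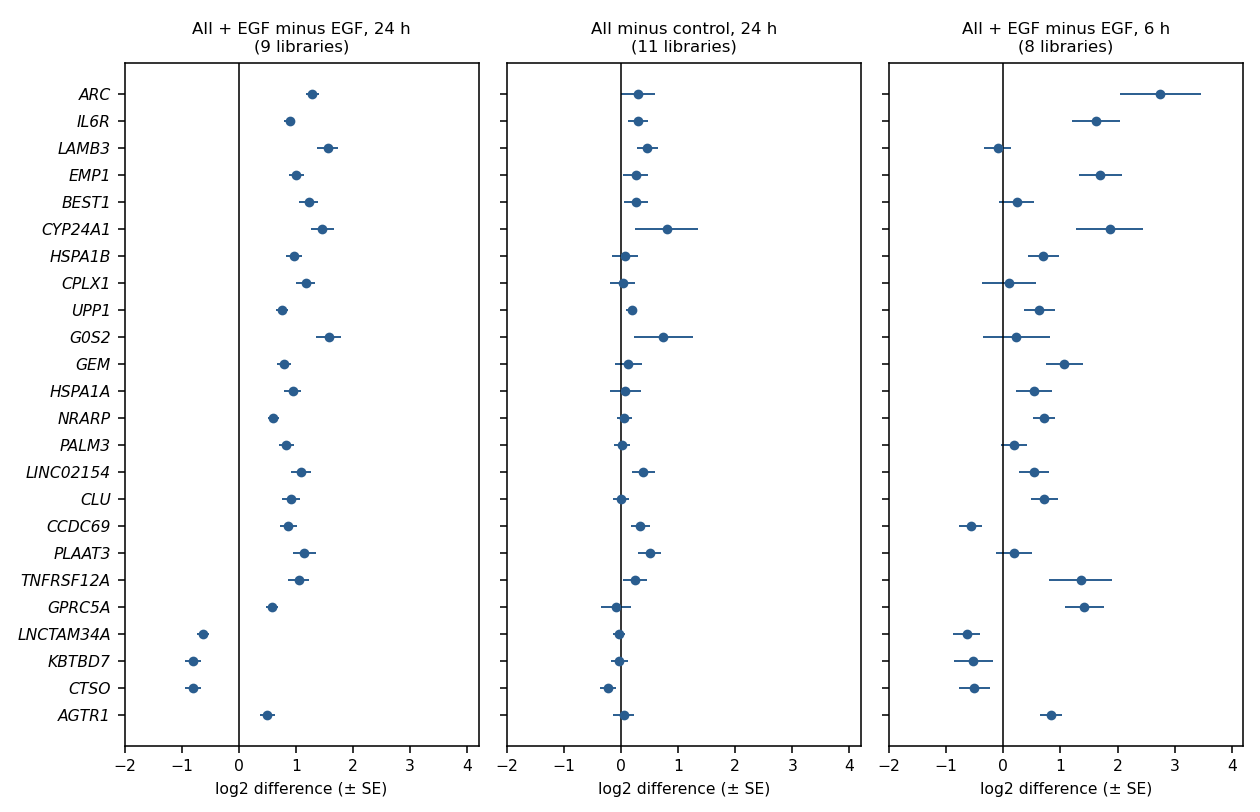
Difference on the log2 scale, with SE, of 23 of the 24 genes and AGTR1 in AII + EGF against EGF at 24 h (left, 9 libraries), AII against control at 24 h (middle, 11 libraries) and AII + EGF against EGF at 6 h (right, 8 libraries). In the middle panel 19 of the 20 higher genes lay above 0, with CYP24A1 at 0.80, and in the right panel ARC, IL6R, EMP1 and CYP24A1 lay above their 24 h values and LAMB3 near 0.

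The interaction asks whether AII changed a gene more with EGF than without it. On the log2 scale no gene was called among 18703 by edgeR (419 at an unadjusted p under 0.05) or by DESeq2 (454). It was 1.01 ± 0.41 for ARC, 1.10 ± 0.25 for LAMB3, 1.07 ± 0.31 for CPLX1 and 0.565 ± 0.14 for UPP1, all with an adjusted p of 1.00 in edgeR. Of the 24 genes, 17 had an unadjusted p under 0.05, and without the run 23 did, against 609 of all 18652 genes. The 24 were chosen on a part of this contrast. Without the run the interaction was 1.36 ± 0.24 for CPLX1 (adjusted p 0.0698), the lowest adjusted p of the 24, and 0.93 ± 0.17 for ARC (adjusted p 0.0934). Without the run 2 genes had an adjusted p under 0.05 and none was called.

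Within the 4 runs of titles that hold both groups, ARC was higher under AII + EGF in each, by 1.06, 1.47, 1.33 and 0.99 on the log2 scale, the last in the run a45 to a48. LAMB3 was higher by 1.16, 1.603, 2.00 and 1.396 in the same order, and AGTR1 by 0.57, 0.40, 0.57 and 0.29. Each run holds 1 or 2 libraries of a group, so these are values with no test. In the run a45 to a48, 24 of the 24 genes differed in the direction of the fit without that run. That count compares 1 library of each group, and the share of all genes that did so was not determined. With the runs as a block ARC rose by 1.28 (adjusted p 2.67e-05) and AGTR1 differed by 0.47 (adjusted p 0.00349), under the minimum of 1.5-fold.

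Gene lists of the pathways downstream of both receptors gave the following. Of 23 tested SRF-TCF immediate-early genes none was called with all libraries, and ARC alone without the run. Their median difference was 0.10 on the log2 scale and 18 of 23 were above 0, against 0.00 and 50.2% over all genes. IER5 and KLF6, early response regulators, differed by 0.25 ± 0.10 and 0.24 ± 0.11 (adjusted p 0.466 and 0.607). Below 0 were, among others, FOS with -0.45 ± 0.39 and EGR1 with -0.19 ± 0.30 (adjusted p 0.818 and 0.909), named after their values had been seen. Of 15 AP-1 subunits 10 were above 0 with a median of 0.19, which was 0.09 without the run, and none was called. MAFK, a small MAF protein, was at 40.8 ± 7.58 CPM under EGF (SD, n = 5) and at 57.3 ± 4.07 CPM under AII + EGF (SD, n = 6), and its groups did not overlap, but the adjusted p was 0.334. Of 21 genes of MAPK feedback and ETS targets 12 were above 0, with a median of 0.04, and DUSP8, DUSP1 and DUSP4, phosphatases of MAP kinases, differed by 0.20, 0.28 and 0.28.

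Among 12 tested receptors and EGF-family ligands, 9 were above 0, with a median of 0.11, and none was called with or without the run. The gene of EGF itself was at 2.05 ± 0.41 CPM under EGF and at 3.31 ± 0.65 CPM under AII + EGF, a difference of 0.68 ± 0.17 (adjusted p 0.104), and 0.815 ± 0.18 without the run (adjusted p 0.0321). ERBB3, a kinase-impaired partner receptor of the EGFR family, was at 4.33 ± 0.87 and 6.54 ± 0.53 CPM without overlap of the groups (difference 0.59 ± 0.17, adjusted p 0.206). EGFR differed by -0.22 ± 0.12 and HBEGF by 0.11 ± 0.13, within the spread between libraries, and were named after their values had been seen. The angiotensin system had 8 tested genes, of which 4 were above 0. ACE, which forms AII, differed by 0.34 ± 0.24 (adjusted p 0.766). NR3C2 and ENPEP of the same list differed by -0.26 ± 0.12 and -0.14 ± 0.09 (adjusted p 0.581 and 0.723). Of 26 genes of the Gq and calcium response 12 were above 0 with a median of -0.03 (-0.06 without the run), and none was called.

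The lists of cytoskeletal and of matrix genes gave no calls either, and the called laminin gene LAMB3 was in neither list. Of 31 MRTF-SRF cytoskeletal genes 22 were above 0, with a median of 0.08 (0.04 without the run), among them LMNA, lamin A/C, with 0.40 ± 0.12 (adjusted p 0.253) and FLNC, filamin C, with 0.45 ± 0.17 (adjusted p 0.442), while TPM1, a tropomyosin, differed by -0.27 ± 0.09. Of 35 TGF-beta and matrix genes 18 were above 0 with a median of 0.02 (-0.01 without the run), with TIMP1, an inhibitor of metalloproteinases, at 0.64 ± 0.25, PLAU, urokinase, at 0.53 ± 0.22 and COL5A1, a collagen chain, at -0.52 ± 0.20. Of 31 hypoxia genes 11 were above 0, with a median of -0.08. Among them ENO2, an enolase, differed by 0.71 ± 0.24 and PDK1, which restrains pyruvate dehydrogenase, by -0.54 ± 0.25, and without the run their adjusted p was 0.0172 and 0.0103.

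The median difference was -0.07 for 36 genes of ATF4 and tRNA charging, -0.02 for 32 of cholesterol and fatty acid synthesis, 0.00 for 32 of DNA replication, 0.08 for 32 of mitosis and 0.02 for 38 ribosomal proteins, and none of these genes was called with or without the run. Without the run these medians were 0.00, -0.04, 0.01, 0.08 and 0.05. HEK293 lineage genes had a median of 0.07, with KRT8 at 0.51 ± 0.25 (adjusted p 0.656), and the 8 tested markers of other cell types a median of 0.06, with the collagen COL3A1 at -0.48 ± 0.15 (adjusted p 0.253). Without the run COL3A1 differed by -0.58 ± 0.09 (adjusted p 0.00379), under 1.5-fold, and its groups did not overlap in the 11 libraries. Of 16 tested genes that earlier results of this series had shown to lead under joint stimulation, 11 were above 0 with a median of 0.35. These were picked on libraries of the same series and are no independent evidence of direction. CGA, the common alpha chain of glycoprotein hormones, differed by 1.23 ± 0.29 (adjusted p 0.0919), and CYP4F3, a fatty acid hydroxylase, by -0.66 ± 0.18 (adjusted p 0.165). Without the run CGA differed by 1.45 ± 0.28 (adjusted p 0.0160) and CYP4F3 by -0.69 ± 0.16 (adjusted p 0.0496).

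**Figure D4:**
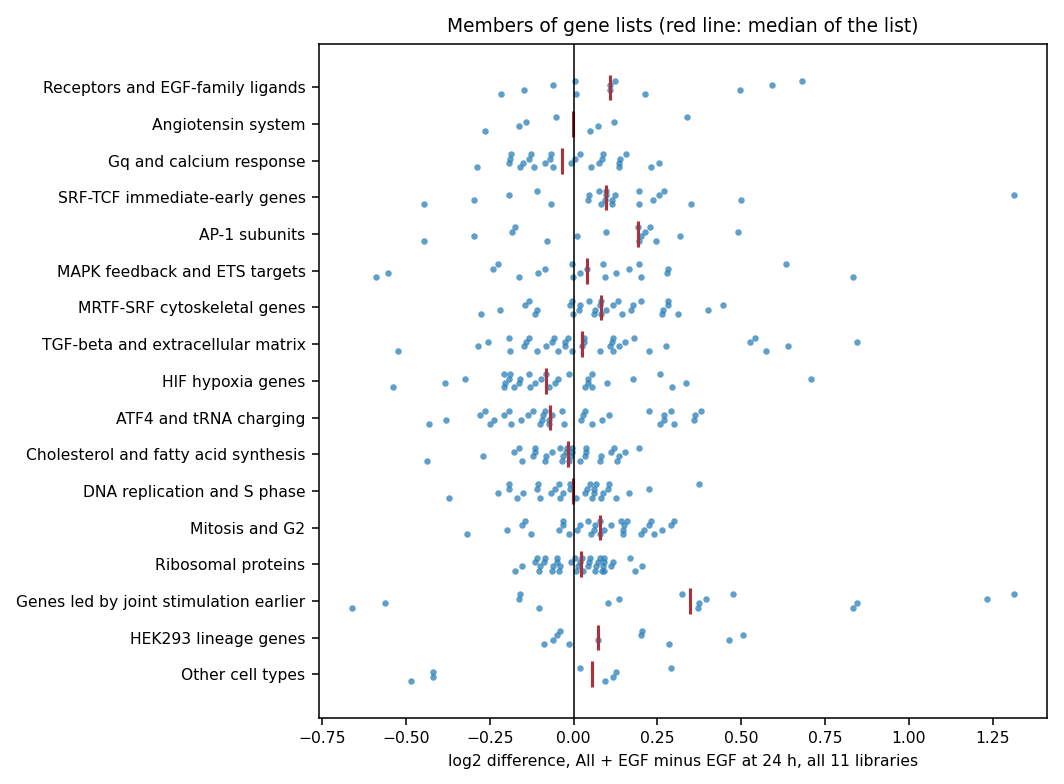
Difference between AII + EGF and EGF at 24 h on the log2 scale with all 11 libraries for each tested member of 17 gene lists (points), with the median of each list as a red line. Most points lay near 0, ARC was the point at 1.31 in the lists it belongs to, and the median was highest, at 0.35, in the genes led by joint stimulation earlier.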

How the data were processed

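The authors mapped the reads of poly(A) libraries to the human genome (hg38) with HISAT2 2.1.0, counted fragments per Ensembl gene with featureCounts and deposited raw counts in 1 table of 60610 genes. Strandedness and the treatment of multiply mapping reads are not given in the sources used here, so overlapping and near-identical genes are uncertain. Its 37 mitochondrial genes were at 0.

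Groups were read from the sample labels. EGF replicate 2 and AII replicate 4 at 24 h were left out, because their counts differed from control libraries at 6 h by less than sampling noise (chi-square over degrees of freedom 0.397 and 0.505; at least 3.96 within the compared groups). Tests ran in edgeR 4.0.16 under R 4.3.3 (filterByExpr by group, TMM factors, quasi-likelihood fit over the 22 other libraries at 24 h, or 18 without titles a45 to a48). SE was the log2 difference divided by the square root of F. CPM were scaled with the TMM factors of the 22 libraries. The medians and sums of HEK293 lineage genes and markers of other cell types were scaled to library totals alone. Comparisons at 6 h and between times used all libraries outside the near-identical pairs. The steps were tested on simulated data.

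The genes named were ARC and AGTR1, up to 12 called genes a direction by smallest p with all libraries, filled to 6 with genes above 5 CPM that were not called, the 12 of smallest p a direction called without the run, and the 3 of smallest p in each of 17 lists. Members and lists were chosen with earlier results of these data known. Other settings were no filter, RLE factors, DESeq2 1.42.0 and its overlap with edgeR, the study's filter, an adjusted p under 0.05, no fold or abundance minimum, other sets of libraries, title runs as a block and leaving out each library. For the permutation tests these were CPM without TMM factors, a pseudocount of 0.1, and other sets of libraries. Positions and promoters came from RefSeq on GRCh38.p14, with genes matched by symbol. For 1 of the genes called without the run, the values are not reported here.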

Additional observations from a re-analysis of the deposited data

Results flagged for a closer look

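Of 54 checks for a library far from the others of its group, on log2 CPM in 27 genes and both groups, 16 found one. Chance flags about 1 in 20 groups, a rate that does not apply here, since most of the genes were called in a fit without these libraries and the genes are not independent. All 16 were replicate 6, 7 under EGF and 9 under AII + EGF. The gap to the nearest library as a share of the range of the group was given for each. Under EGF, replicate 6 was lowest in ARC (0.916), CYP24A1 (0.847), GEM (0.805), G0S2 (0.799), IL6R (0.773) and GPRC5A (0.725), and highest in CCDC69 (0.819). Under AII + EGF, replicate 6 was lowest in GPRC5A (0.846), G0S2 (0.824), AGTR1 (0.764), HSPA1A (0.739), EMP1 (0.701), HSPA1B (0.693), NRARP (0.693), CYP24A1 (0.676) and ARC (0.674).

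The difference between AII + EGF and EGF changed between 6 h and 24 h in 3 of the 27 genes at an adjusted p under 0.05 in edgeR. It was larger at 24 h by 1.64 on the log2 scale in LAMB3 and by 1.26 in CCDC69. In GASAL1 it went from 0.63 ± 0.18 at 6 h to below 0 at 24 h, a change of -1.18 ± 0.24 (adjusted p 0.0203).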

How the results depend on the processing

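With all 11 libraries the count of 2 called genes became 25 with DESeq2, 6 without a filter, 20 at an adjusted p under 0.05, 1 with 47 libraries of both times or with all libraries outside the near-identical pairs, 71 with title runs as a block, 17 with EGF replicate 2 and AII replicate 4 put back and 12 without a46 and a48. Leaving out 1 library gave 2 to 18. Without the run a45 to a48 the count of 24 became 62 with DESeq2, 39 without a filter, 55 at an adjusted p under 0.05, 3 with all other libraries of both times except EGF replicate 2, 5 with those outside the pairs and 70 with the block. Leaving out 1 library gave 6 to 20. The other settings stayed within 1.5 times of both counts, and the interaction gave 0 calls in every setting run. By the exact permutation test the p-value of ARC kept its side of 0.05 in all settings run, and that of AGTR1 in all but 1. Without EGF replicate 6 the AGTR1 difference was 0.371 on the log2 scale, with p 0.0571 in that test. Over single libraries left out, the log2 difference of AGTR1 ranged from 0.371 to 0.622. In the fits across genes the adjusted p of ARC was 0.0501, and 0.0022 with DESeq2, 2.67e-05 with the block, 0.167 with the 2 groups only and 0.541 with 47 libraries. No named gene changed direction. No paired analysis was possible because the labels carry no replicate numbers; the block of title runs stands in its place, and the cause of the changes in count was not tested. Depth limits genes under 5 CPM.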

Other observations

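Without the run a45 to a48, 10 genes had an adjusted p under 0.01 in edgeR without meeting the other minimums, 6 below 5 CPM and 4 below 1.5-fold. They were named after their values had been seen. VGF, the precursor of secreted neuropeptides, was at 1.11 ± 0.34 CPM under EGF (SD, n = 4) and at 3.85 ± 0.78 CPM under AII + EGF (SD, n = 5), a difference of 1.79 ± 0.22 on the log2 scale (adjusted p 0.000408). With all 11 libraries it was 1.48 ± 0.29 (adjusted p 0.0297), and EGF replicate 6 and AII + EGF replicate 6 lay at 1.86 and 2.12 CPM. IRX4, a homeobox factor, differed by 1.347 ± 0.20 without the run and by 1.25 ± 0.19 with it (adjusted p 0.00253 and 0.00323), and its groups did not overlap in the 11 libraries.

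Among the lower genes below a minimum were receptors and matrix genes. GHR, the receptor of growth hormone, differed by -1.22 ± 0.19 without the run (adjusted p 0.00312), but AII + EGF replicate 6 was at 2.46 CPM, above EGF replicate 6 at 1.58 CPM, and the adjusted p was 0.257 with all libraries. ADAMTS5, a protease of cartilage proteoglycans, was at 1.37 ± 0.23 CPM under EGF and at 0.453 ± 0.124 CPM under AII + EGF, a difference of -1.58 ± 0.24 (adjusted p 0.00338). TFRC, the transferrin receptor of iron uptake, was at 171 ± 13.1 and 114 ± 8.77 CPM, a difference of -0.58 ± 0.10 (adjusted p 0.00640). In the left-out run TFRC was at 76.2 CPM under EGF and 93.1 CPM under AII + EGF, the other direction, and its adjusted p was 0.452 with all libraries.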
